A study of Rattus norvegicus with 4 samples.

Results

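The metallothioneins Mt1, Mt2A and Mt3, the zinc-sensing transcription factor Mtf1 and the zinc exporter Slc30a1 were followed in NR8383, a line of alveolar macrophages from the rat. These 5 genes were chosen by earlier results of the same arrays, in which Mt1 and Mt2A differed between replicate cultures, so their spread is given here as a description with no test. They were represented by 6 probes and 24 spots, of 45598 gene probes and 58717 gene spots on each array, and by 5 of 16581 genes that could be named through RefSeq. All 4 samples belonged to 1 group. Per the labels they were water (H2O) controls kept for 4 h, with the tag ALI that is not spelled out, from cells at 20 passages seeded for 48 h in flasks of 25 cm2. The design text calls them biological replicates and no other condition was analysed here, so every comparison below is between cultures that carry the same label. Each culture was measured on 1 array, and the number of arrays limits the precision.

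Metallothioneins are small, cysteine-rich proteins of the cytosol that hold zinc and copper ions and also bind cadmium. Mtf1 is a zinc finger protein that binds DNA when free zinc rises in the cell, at metal response elements upstream of metallothionein genes and of Slc30a1, and Slc30a1 (ZnT1) carries zinc out through the plasma membrane. In macrophages zinc handling changes with metal exposure, with inflammation and with the uptake of microbes or particles.

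The DNA upstream of the 5 genes is shown because the arrays read genes that share a regulator, and the element that this regulator binds can be seen in the sequence. The windows are the 250 bases before each annotated gene start in RefSeq (build GRCr8), printed 5′ to 3′ on the strand of the gene. Mt1 is at chr19:10832976-10833225, Mt2A at chr19:10838709-10838958 and Mt3 at chr19:10856081-10856330, all on the minus strand, while Mtf1 is at chr5:142346804-142347053 and Slc30a1 at chr13:106021769-106022018, both on the plus strand. Capitals mark the core of the metal response element, TGCACNC or TGCGCNC, on either strand.
Mt1: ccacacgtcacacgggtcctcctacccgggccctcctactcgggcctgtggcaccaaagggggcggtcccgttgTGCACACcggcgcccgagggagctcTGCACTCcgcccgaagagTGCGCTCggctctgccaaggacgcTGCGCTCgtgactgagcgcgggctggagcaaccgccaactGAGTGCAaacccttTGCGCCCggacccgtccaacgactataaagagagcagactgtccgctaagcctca
Mt2A: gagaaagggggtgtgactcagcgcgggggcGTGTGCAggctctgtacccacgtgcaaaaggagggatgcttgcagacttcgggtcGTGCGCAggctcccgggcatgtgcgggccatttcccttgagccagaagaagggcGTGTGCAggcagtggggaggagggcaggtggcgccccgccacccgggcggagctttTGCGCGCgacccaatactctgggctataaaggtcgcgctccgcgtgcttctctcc
Mt3: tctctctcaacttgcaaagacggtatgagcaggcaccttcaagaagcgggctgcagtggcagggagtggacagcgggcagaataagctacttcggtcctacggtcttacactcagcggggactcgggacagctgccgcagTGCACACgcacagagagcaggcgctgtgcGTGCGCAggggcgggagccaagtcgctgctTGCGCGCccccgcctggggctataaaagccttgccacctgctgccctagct
Mtf1: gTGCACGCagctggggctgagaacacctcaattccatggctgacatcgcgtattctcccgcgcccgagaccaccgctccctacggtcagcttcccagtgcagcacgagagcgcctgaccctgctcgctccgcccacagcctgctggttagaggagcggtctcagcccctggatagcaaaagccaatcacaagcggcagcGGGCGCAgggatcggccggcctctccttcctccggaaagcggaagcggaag
Slc30a1: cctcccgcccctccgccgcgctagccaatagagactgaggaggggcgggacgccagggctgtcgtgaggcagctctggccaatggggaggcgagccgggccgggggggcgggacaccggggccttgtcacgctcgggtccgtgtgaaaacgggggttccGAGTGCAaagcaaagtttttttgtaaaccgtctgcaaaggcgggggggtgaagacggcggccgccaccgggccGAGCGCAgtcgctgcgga

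The core occurred most often upstream of the metallothioneins. Mt1 had 6 cores, 5 of them on the printed strand, spread from 176 to 55 bases before the start, and no pair of cores overlapped in any of the 5 windows. Mt2A had 4 cores, 3 of them on the opposite strand, from 220 to 55 bases before the start. Mt3 had 3 cores, from 110 to 51 bases before the start. Mtf1 and Slc30a1 had 2 each, at 249 and 51 bases and at 91 and 18 bases before the start. Among all 33469 windows of the same length in the table, 20.6% held at least 1 core, 4.90% at least 2, 1.17% at least 3, 0.266% at least 4 and 0.0269% at least 6. The 5 windows were rich in G and C (62.8% to 69.2%), and among the 18496 windows with at least 50% of these bases 7.87% held at least 2 cores and 0.0487% at least 6. The 3 metallothionein windows also held TATAAA, the letters of a TATA box, 31 or 32 bases before the start on the printed strand, where neither Mtf1 nor Slc30a1 held it on either strand. This motif was added after the sequences had been seen. Of all windows, 8.06% held it on the printed strand and 12.9% on either strand. A match of letters is a description and not a site shown to be bound.

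**Figure D1:**
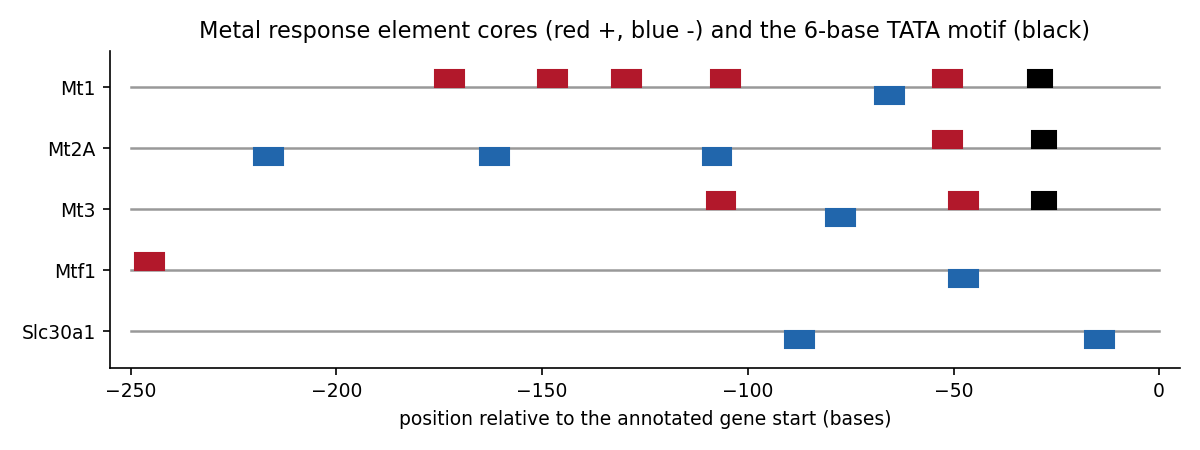
Positions of metal response element cores (red on the strand of the gene, blue on the opposite strand) and of TATAAA (black) in the 250 bases before the annotated start of each gene; the horizontal axis is in bases relative to the start. Mt1 has 6 cores, Mt2A 4, Mt3 3, and Mtf1 and Slc30a1 2 each, and the 3 metallothioneins alone among the 5 genes have the TATA motif.

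Values below are log2 processed signals after subtraction of each array's own 75th percentile, so 0 is the signal that 25% of gene spots exceed. Probes differ in affinity, so a value follows 1 probe across arrays and does not rank genes by abundance. Detection of a gene required 1 or more probes that the scanner software flagged as well above background on 4 of 4 arrays. Of the 5 genes, Mt1, Mt2A, Mtf1 and Slc30a1 were detected and Mt3 was not, against 51.0% of all 16581 named genes.

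Mt1, the more widely expressed metallothionein gene with Mt2A, was at 3.75, 3.50, 3.99 and 4.71 on replicates 1 to 4 (3.99 ± 0.52, SD, n = 4), from mean intensities of 11824, 10570, 19739 and 21784. Replicate 4 was the highest and replicate 2 the lowest, 2.31-fold apart. Its probe was spotted 10 times on each array, and no spot carried an outlier flag. The 10 spots lay between 3.61 and 3.90 on replicate 1, between 3.33 and 3.65 on replicate 2, between 3.82 and 4.16 on replicate 3 and between 4.52 and 4.91 on replicate 4. The spots of replicate 4 did not overlap those of any other array, while those of replicate 1 overlapped at their edges with both neighbours in the order. Each of the 10 spots put the arrays in the same order (replicate 2, 1, 3, 4), with 1.12 to 1.36 between the highest and the lowest array. The SD between spots on an array was 0.11 to 0.14, and the SD between arrays was 4.30 times the pooled SD between spots. Among the 1044 detected probes with 10 spots the median of that ratio was 1.17, and 10 of them, Mt1 included, reached the ratio of Mt1. Of the same probes, 8 (0.766%), again with Mt1, spanned at least as much between arrays. Mt1 was chosen for its spread between arrays, so nothing is read from its place among these probes. Spots of 1 array share their RNA and labelling, so the spread between spots covers the reading of a probe and not the culture.

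Mt2A, the other major metallothionein of most tissues, had its arrays in the same order as Mt1. It was at 0.34, 0.30, 0.91 and 1.53 on replicates 1 to 4 (0.77 ± 0.58, SD, n = 4). Replicate 4 was again the highest and 2.35-fold above replicate 2, replicate 3 lay between, and replicates 1 and 2 were 0.04 apart. Without scaling replicate 1 was the lowest for Mt2A and replicate 2 for Mt1, so the 2 orders then differed. Mt2A had 1 probe with 1 spot, for which Feature Extraction gave an error of 10.0% of the signal on every array. The 70 detected probes with 10 spots and an intensity within 0.5 (log2) of Mt2A had a median SD of 0.12 between spots of 1 array and of 0.13 between arrays.

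Set beside each other, the deviations of both genes from their own means were -0.24 and -0.43 on replicate 1, -0.49 and -0.47 on replicate 2, 0.01 and 0.14 on replicate 3, and 0.72 and 0.76 on replicate 4, Mt1 first. The difference of the deviations had an SD of 0.14 over the 4 arrays, and it does not depend on how an array is scaled as a whole. Both genes were selected on their difference between these cultures, so their likeness is a description. The sequences of the probes were not used here, and whether either probe also reads the other transcript was not tested.

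**Figure D2:**
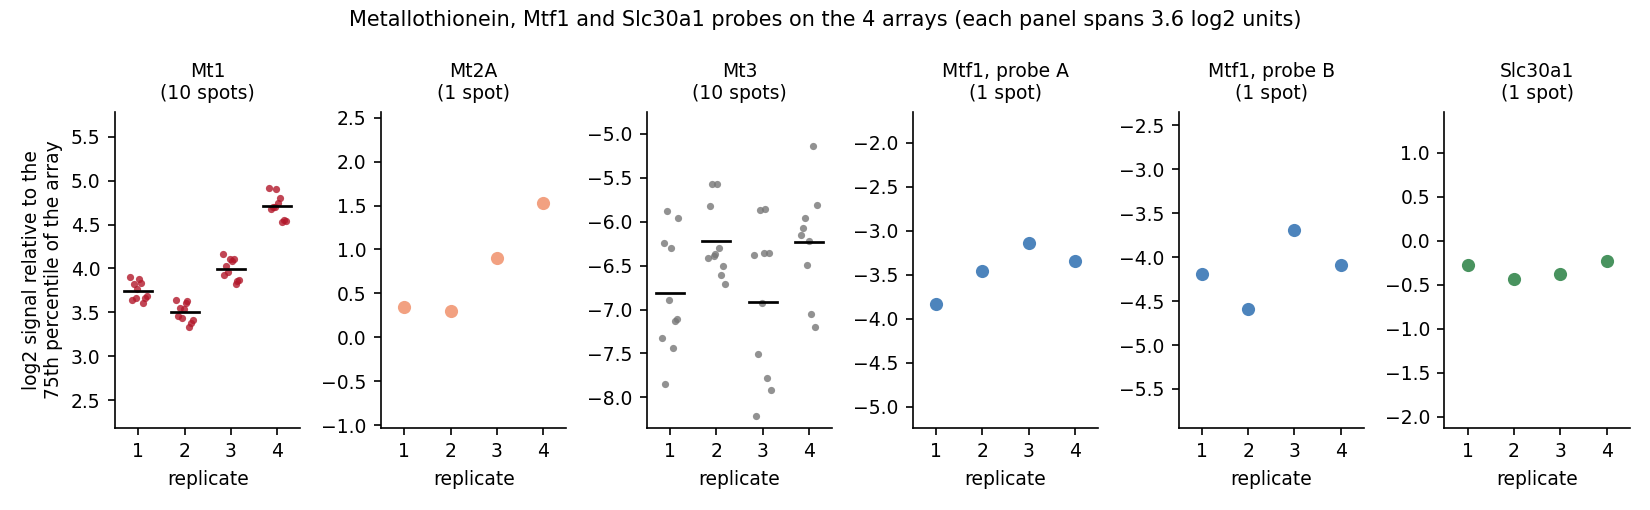
Log2 signal over the array's 75th percentile (vertical axis) on replicates 1 to 4 (horizontal axis) for the 6 probes. Points are single spots, and black bars are means where a probe has 10 spots. The Mt1 spots of replicate 4 lie above those of all other arrays and Mt2A shows the same order, Mt3 spots scatter near background, and Slc30a1 stays within 0.21.

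Mt3, the metallothionein best known from the brain, was not well above background in these macrophages. Its probe had 10 spots, with mean intensities between 8.62 and 13.0 on the 4 arrays. Of 39 spot values without an outlier flag, 1 was well above background, on replicate 3. Feature Extraction's error for these spots averaged 41.3% to 62.6% of the signal, and values this close to background have no order. Mt3 did count as detected under either looser rule, the positive and significant flag or a signal over the mean + 2 SD of the negative controls.

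Mtf1, the transcription factor itself, was dim and did not follow the full order of Mt1 and Mt2A. Its brighter probe was at -3.83, -3.45, -3.14 and -3.34 on replicates 1 to 4 (-3.44 ± 0.29, SD, n = 4), highest on replicate 3 and lowest on replicate 1. Its other probe was at -4.20, -4.59, -3.70 and -4.09, also highest on replicate 3 but lowest on replicate 2. On both probes replicates 1 and 2 lay below replicates 3 and 4, as for Mt1 and Mt2A. For the brighter probe this did not hold without scaling or with spike-in scaling. Both probes were well above background on all arrays, with 1 spot each and intensities between 38.7 and 140. The 27 detected probes with 10 spots at the intensity of the brighter Mtf1 probe had a median SD of 0.17 between spots of 1 array and of 0.16 between arrays, against 0.29 between arrays for Mtf1. For the dimmer probe the corresponding values were 0.25, 0.18 and 0.37. The range of the brighter probe, 0.69, was 1.18 without scaling, 1.51 with spike-in scaling, 0.39 with the normexp background, which put replicate 4 highest, and 0.31 without replicate 1.

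Slc30a1, the zinc exporter that Mtf1 is known to induce together with the metallothioneins, had the smallest range of the 4 detected members. It was at -0.27, -0.44, -0.38 and -0.23 on replicates 1 to 4 (-0.33 ± 0.10, SD, n = 4), from 1 spot on each array with a software error of 10.0%. Its highest and lowest arrays, 4 and 2, were the same as for Mt1, but they were 1.16-fold apart, and all 4 values lay within 0.21. The 43 detected probes with 10 spots at its intensity had a median SD of 0.11 between spots of 1 array and of 0.15 between arrays, against 0.10 between arrays for Slc30a1. The range was 0.34 with the array median, 0.47 without scaling and 0.71 with spike-in scaling, each with replicate 3 highest.

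The ranges of the 4 detected members were set beside those of all detected genes. Of the 4 detected members Mt1 and Mt2A spanned more than 2-fold between the highest and the lowest array, as did 276 of 8456 detected genes (3.26%). This measure is the one that chose the members, and nothing is read from their count. A range as large as that of Mt1 occurred in 1.58% of the 8456 genes and one as large as that of Mt2A in 1.40%, while the ranges of Mtf1 and Slc30a1 were reached by 10.5% and 76.3%, and the median range was 0.32. Without replicate 4 the range of Mt1 was 0.49 and that of Mt2A 0.61, so that neither spanned 2-fold, and 161 genes did. Without replicate 2 the range of Mt1 was 0.96 and that of Mt2A 1.19. Without replicate 3 both ranges were as before and the count of genes was 130.

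**Figure D3:**
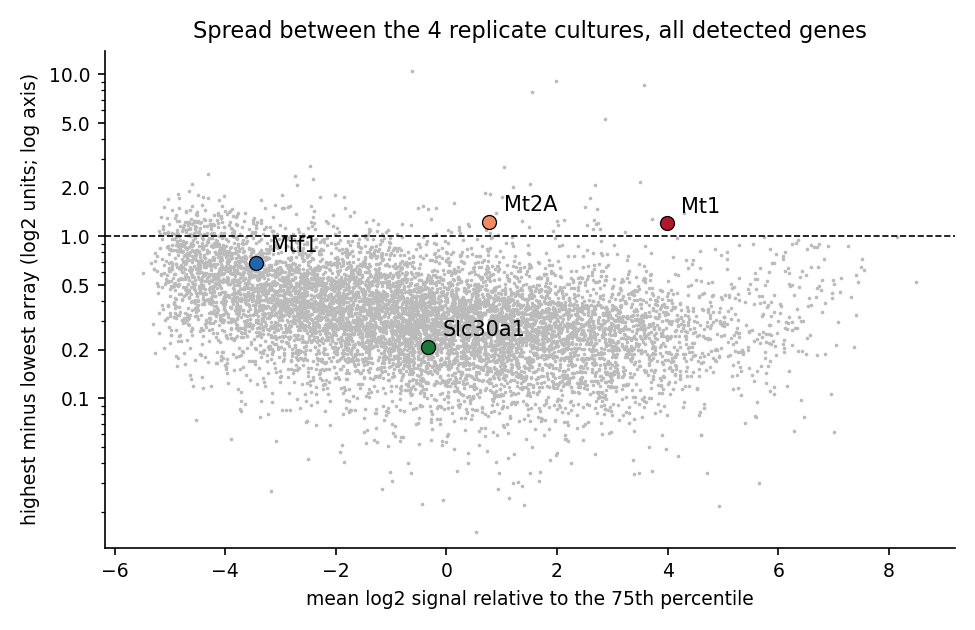
Highest minus lowest array (vertical axis, log2 units on a log axis) against the mean signal relative to the 75th percentile (horizontal axis) for 8456 detected genes (grey), with the 4 detected members in colour. Mt1 and Mt2A lie above the dashed line at 1 (2-fold) and Slc30a1 lies within the bulk.

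The place of replicate 3 depended on the scaling. As deposited, without any step between arrays, the Mt2A spot gave intensities of 1112, 1149, 2319 and 2403 on replicates 1 to 4, so that replicates 3 and 4 were the high pair for both metallothioneins. The 75th percentile of the array was 878, 932, 1237 and 831, highest on replicate 3, and dividing by it put replicate 3 between the others. The 8 probes for E1A spike-in controls that were well above background on all arrays deviated after this scaling by 0.35, -0.13, -0.47 and 0.25 on average on replicates 1 to 4. Scaled to these spike-in probes instead, a choice made after the values were seen, Mt1 deviated by -0.59, -0.35, 0.47 and 0.47 from its mean and Mt2A by -0.78, -0.34, 0.61 and 0.51. Under all 7 ways of scaling or background correction replicates 1 and 2 lay below replicates 3 and 4 for both genes, and the range stayed between 1.04 and 1.21 for Mt1 and between 1.11 and 1.39 for Mt2A. The part that the amount of labelled RNA per array played in these levels was not tested.

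**Figure D4:**
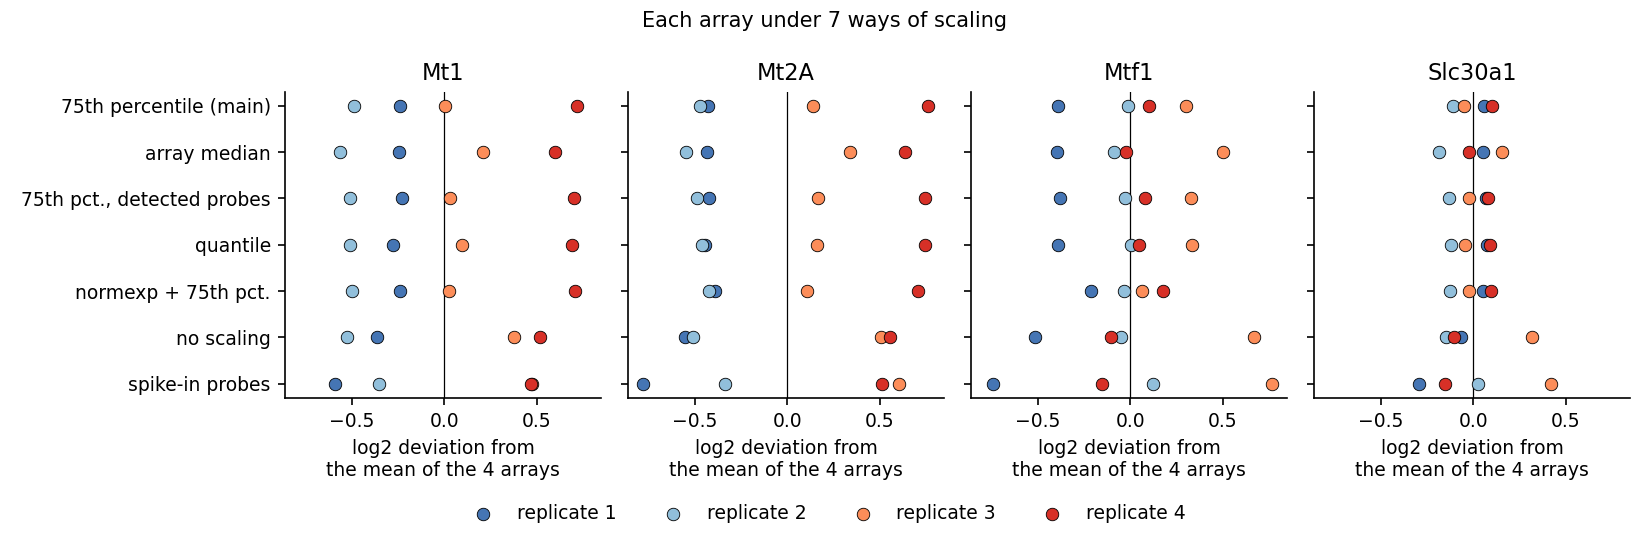
Deviation of each array from the mean of the 4 arrays (horizontal axis, log2 units) for the 4 detected members under 7 ways of scaling or background correction (rows); colours are replicates. For Mt1 and Mt2A replicates 1 and 2 stay below replicates 3 and 4 in every row. For Mtf1 they do so except without scaling and with spike-in scaling, and for Slc30a1 in no row. Replicate 3 moves with the scaling for all 4 genes.

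The other zinc transporters had smaller ranges than Mt1 and Mt2A after scaling to the 75th percentile, but this depended on the scaling and on replicate 4. Mt1 and Mt2A were chosen for their spread, and most detected genes had smaller ranges, so nothing is read from this. Of the 9 ZnT genes beside Slc30a1, a family of which most carry zinc out of the cytosol, 5 were detected (Slc30a3, Slc30a5, Slc30a6, Slc30a7 and Slc30a9). Slc30a2, Slc30a4, Slc30a8 and Slc30a10 were well above background on no array. Of 12 ZIP genes with a named probe, which carry zinc into the cytosol, 11 were detected and Slc39a12 was not, while Slc39a10 and Slc39a13 had no named probe. None of these 16 detected transporters spanned 2-fold, against 3.26% of all detected genes, and the widest was Slc39a7 (0.90). Without scaling 3 did (Slc39a2, Slc39a7 and Slc39a11), with the array median 1 (Slc39a7) and with spike-in scaling 5, of which 2, 1 and 4 spanned at least as much as Mt1 under the same scaling. Without replicate 4, 6 of the 16 spanned at least as much as Mt1. By a limma test of each gene's variance against that of genes with like signal, with Benjamini-Hochberg adjustment over all detected genes, 20 of 8456 genes (0.237%) were called hypervariable. Neither Mt1 nor Mt2A was among these 20, and none of the 16 transporters was, so the calls do not set them apart. The fit without a trend called none of the 16 transporters either. By the main fit 1 of 16 had an unadjusted p under 0.05 (6.25%, against 6.30% of all detected genes). That gene was Slc39a7, a zinc channel of the endoplasmic reticulum, at -0.68, 0.05, -0.00 and -0.85 on replicates 1 to 4, with replicates 2 and 3 the high pair. The plasma membrane importer Slc39a8, known to rise in activated macrophages, was at 0.44, 0.38, 0.43 and 0.59. Slc39a1, a plasma membrane importer, was at 3.33, 3.23, 3.05 and 3.32. Slc39a14, which also carries iron, was dim, at -4.70, -4.06, -4.39 and -4.26. The vesicular carrier Slc30a5 of the secretory pathway was at -1.82, -2.15, -1.78 and -1.92. None of these 4 genes had its arrays in the order of Mt1. Slc39a6, another importer, did have that order, at -0.04, -0.05, -0.03 and 0.07, but within 0.12.

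**Figure D5:**
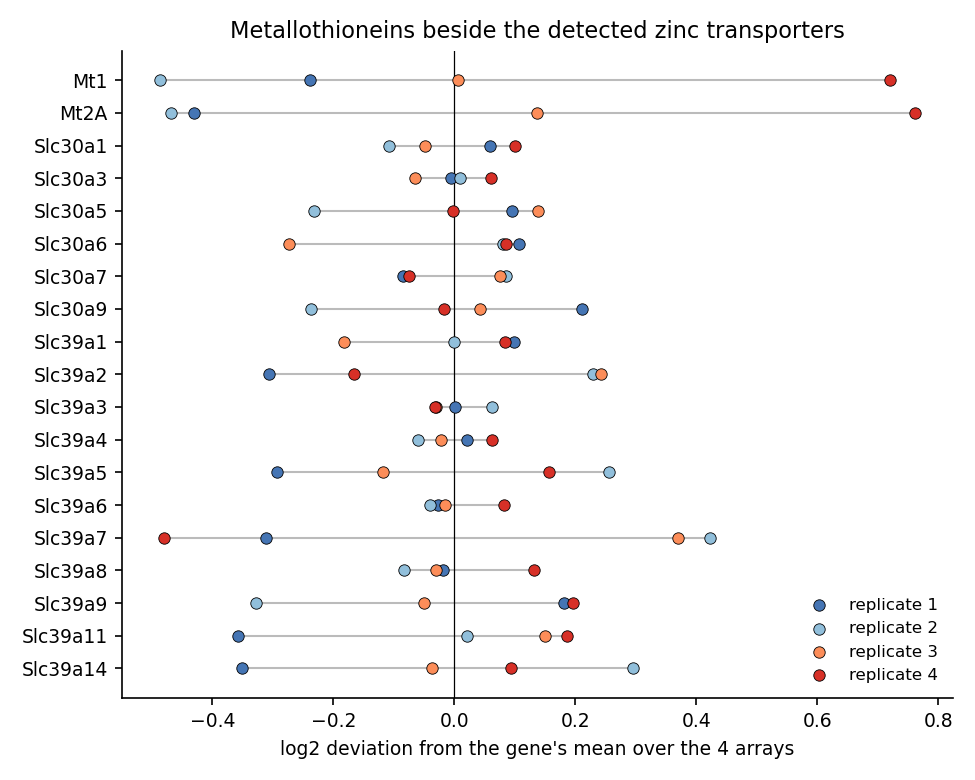
Deviation of each replicate from the gene's own mean over the 4 arrays (horizontal axis, log2 units) for Mt1 and Mt2A and for the 17 detected zinc transporters, Slc30a1 included. Mt1 and Mt2A were chosen for their spread. Grey lines join the lowest and the highest array. The lines of Mt1 and Mt2A are the longest, with ranges of 1.21 and 1.23, and the longest among the transporters is that of Slc39a7, 0.90, which is longer than that of Mt1 without scaling, with the array median and with spike-in scaling.

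Among 90 other named genes of 9 lists tied to metallothionein control, 71 were detected, 2 of them (2.82%) spanned more than 2-fold and 0 were hypervariable (limma variance test, adjusted over all genes), against 3.26% and 0.237% of all detected genes. The fit without a trend also called 0, and 8 of the 71 (11.3%) had an unadjusted p under 0.05, against 6.30% of all detected genes. Mt1 and Mt2A were not called hypervariable either. The median SD over the 71 genes was 0.14, as over all detected genes. The 2 genes over 2-fold were Hspa1a and Osgin1, where 9 of the 71 spanned 2-fold without scaling, 5 with the array median, 18 with spike-in scaling and 0 of 72 without replicate 4. Hspa1a, the inducible heat shock protein HSP70, was at -3.09, -3.53, -2.71 and -1.98 on replicates 1 to 4, with its arrays in the order of Mt1 and a 2.91-fold range by 1 of its 2 probes. Osgin1, an oxidative stress gene, was at -4.84, -4.05, -4.49 and -5.06, lowest on the array where the metallothioneins were highest.

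Other metal-responsive genes had smaller ranges than Mt1 and Mt2A at this scaling, up to 0.95 for Txnrd1. Mt1 and Mt2A were chosen for their spread, and most detected genes had smaller ranges, so nothing is read from this. Txnrd1 spanned 2-fold without scaling, with the array median, with the 75th percentile over detected probes and with spike-in scaling. Hmox1 and the selenoprotein gene Selenow did so with spike-in scaling. Of 13 further metal-induced genes or known Mtf1 targets with a named probe, 8 were detected. After scaling to the 75th percentile of the array 0 of these 8 spanned 2-fold, against 3.26% of all detected genes. Their median SD was 0.19 against 0.14 over all detected genes, and 3 of the 8 (Txnrd1, Fth1 and Ftl1) had an unadjusted p under 0.05 by limma, none of them after adjustment. Hmox1, haem oxygenase, was at 4.34, 4.50, 4.77 and 4.67 on replicates 1 to 4. Gclc, of glutathione synthesis, spanned 0.34, and Selenoh, a selenoprotein, 0.20. The ferritin heavy chain Fth1 was at 7.07, 6.65, 6.20 and 6.66, lowest on replicate 3 at this scaling. Mt4, the metallothionein of stratified epithelia, Slc30a10, Hamp and Pgf were well above background on no array. Mean deviations of the 8 genes were -0.02, 0.03, -0.01 and 0.01 on replicates 1 to 4, a mean over genes with different orders. At this scaling Hmox1, Selenow and Selenoh had replicates 1 and 2 below replicates 3 and 4, as for Mt1 and Mt2A. Gclc, Txnrd1, Fth1, Ftl1 and Cp did not. The relation of these orders to Mt1 and Mt2A was not tested.

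The transcription factors known to act on metallothionein genes had a median SD of 0.13, near the 0.14 of all detected genes. Of the 12 detected factors beside Mtf1, 0 spanned 2-fold, against 3.26% of all detected genes, and the widest was Usf1, an E-box factor, with a range of 0.67. Usf1 did span 2-fold without scaling and with spike-in scaling. The others included the glucocorticoid receptor Nr3c1 (2.66 ± 0.12, SD, n = 4), the Nrf2 gene Nfe2l2 (2.30 ± 0.08, n = 4), Sp1 (-0.15 ± 0.04, n = 4) and Stat3 (2.08 ± 0.18, n = 4). Of 10 glucocorticoid-induced genes 7 were detected, with a median SD of 0.09, including Tsc22d3 at -0.15 ± 0.09, Fkbp5 at 1.27 ± 0.07 and Sgk1 at 1.86 ± 0.04 (SD, n = 4). Mean deviations of these 7 genes were -0.02, 0.06, 0.02 and -0.05 on replicates 1 to 4. The 8 detected heat shock genes deviated on average by -0.03, -0.12, -0.04 and 0.19 on replicates 1 to 4, a mean that holds Hspa1a. Of the copper carriers and chaperones 9 of 10 were detected, with a median SD of 0.07, and the importer Slc31a1 was well above background on no array.

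The genes whose values ran closest to a metallothionein over the 4 arrays were picked by the root mean square difference of values centred on each gene's mean. Mt2A was the fifth nearest to Mt1 (0.12) and Mt1 the second nearest to Mt2A, where the median over all detected genes was 0.45 for Mt1 and 0.51 for Mt2A. Leaving out members, the genes nearest to Mt1 included Fkbp7 (0.08), Myo9a (0.08), LOC100910973 (0.09) and Kcne4 (0.13). Those nearest to Mt2A included Myo9a (0.09), Arhgap29 (0.13), Hspa1a (0.15) and LOC100910973 (0.15), so that Myo9a and LOC100910973 were in both sets. Myo9a, an unconventional myosin, was at -4.18, -4.23, -3.78 and -3.18 on replicates 1 to 4 by its 1 named probe, a dim signal. Fkbp7 (-4.62 to -3.58), LOC100910973 (-4.95 to -4.00), Kcne4 (-5.42 to -4.06) and Arhgap29 (-4.69 to -3.74) were dim as well. None of these genes was hypervariable, nor were Mt1 and Mt2A. With 4 points close matches occur among many genes, so the list is a description. Slc30a1 ranked 2102nd for Mt1 (0.39) and Mtf1 3158th (0.42). For Mt2A the order was reversed, with Mtf1 at rank 1250 (0.41) and Slc30a1 at rank 2541 (0.46). The difference also depends on how much a gene varied, so these ranks do not compare the order of arrays alone.

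The label of the cells was set against markers. All 8 macrophage markers were detected, including Cd68 and Spi1, against 51.0% of all named genes. Their mean deviations were -0.01, 0.12, -0.05 and -0.06 on replicates 1 to 4. Of the 6 epithelial markers 1 was detected (Foxj1), of the 4 fibroblast markers 1 (Dcn), of the 4 endothelial markers 3 (Cdh5, Pecam1 and Vwf), and of the 3 T and B cell markers with a named probe 0. Sftpc, Epcam, Col1a1 and Cd3e were well above background on no array. The detected markers outside the macrophage list had means of 1.27 (Vwf), 0.10 (Dcn), -1.04 (Pecam1), -3.98 (Foxj1) and -4.52 (Cdh5). Cdh5 spanned more than 2-fold (-4.18, -4.88, -5.20 and -3.82), highest on replicate 4 and lowest on replicate 3 at this scaling. Its part in the spread of Mt1 and Mt2A was not tested. The share of gene spots well above background was 49.2% to 50.3%, depending on the array.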

How the data were processed

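RNA of 4 cultures was measured on 4 one-colour Agilent rat arrays on 1 slide with 1 scan date, 100 ng of RNA each per the labels' protocols. Per the file headers, each deposited file holds spot intensities from Agilent Feature Extraction 11.0.1.1, corrected within the array only, with flags of 0 or 1 per spot. Control spots and spots with an outlier flag were left out, spots of a probe were averaged as log2 values, and the 75th percentile of all gene spots was subtracted. The brightest probe stood for a gene. Accessions without versions were matched to the RefSeq table of GRCr8, which named 21109 of 45598 probes (46.3%), each as 1 gene.

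Spread was tested with limma 3.58.1 in R 4.3.3, as the residual variance of an intercept-only fit over the prior variance of eBayes (trend, robust; degrees of freedom of the bulk of genes), upper tail, Benjamini-Hochberg at 0.05, after the test had been checked on simulated data. Whether replicates came from separate flasks or days is not stated beyond the name biological replicate, so p-values measure the spread between these samples. Members and lists were chosen with earlier results of these data known. Genes were named by rule: the members, zinc transporters, list genes over 2-fold, and the 5 nearest genes to Mt1 and Mt2A; other list genes are examples. Alternatives changed the scaling, the background (normexp, offset 50, on the median signal), the outlier and dim filters, the probe summary, the detection rule, the prior, and the replicates used. Python 3.11.15 did the rest. Protein sequences were not used here. A single gene that the rule names is not reported here.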

Additional observations from a re-analysis of the deposited data

Results flagged for a closer look

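A check for a single far array covered 30 items. These were the member probes, the other detected zinc transporters, the list genes over 2-fold and the genes nearest to Mt1 and Mt2A. Other genes named in the text were not screened. Among the 30, the zinc carrier Slc30a6 had 1 array far from the others. Its gap to the nearest array was 0.927 of its whole range, above Dixon's 95% critical value for 4 samples. It was at -1.03, -1.05, -1.41 and -1.05 on replicates 1 to 4, so that replicate 3 was the low array at this scaling. The 75th percentile was highest on replicate 3, and without scaling replicate 3 was not the low array of this gene. The check was made at this scaling only. Chance flags about 5% of such groups.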

How the results depend on the processing

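Detection of 4 or 5 of the 5 members held under all 8 alternatives. The range of Mt1 and of Mt2A moved by less than 1 SD (the gene's own, between arrays) under 11 of 12 alternatives each. Some of these could not change it, because each gene had 1 probe, no flagged spot, and its extremes on replicates 2 and 4. Keeping outlier spots, averaging probes, and leaving out replicate 1 or 3 therefore returned the same range. The count is thus no measure of robustness. Leaving out 1 replicate gave ranges of 0.492 to 1.21 for Mt1, 0.606 to 1.23 for Mt2A and 0.310 to 0.690 for Mtf1, lowest without replicate 4, 4 and 1. The range of Mtf1 was 1.18 without scaling, 0.390 with normexp and 1.51 with spike-in scaling (added after seeing the data). That of Slc30a1 was 0.468 without scaling, 0.339 with the array median and 0.712 with spike-in scaling. The median of all detected genes shifted by up to 0.34 without scaling, 0.17 with the array median and 0.44 with spike-in scaling, each on replicate 3. Genes over 2-fold numbered 276, but 834 without scaling, 76 with normexp, 2324 with spike-in scaling, 3909 with no filter on dim probes and 130 to 229 without 1 replicate. The 20 hypervariable genes became 4 without a trend, 10 with the 75th percentile over detected probes, 10 with quantile normalization, 57 with normexp, 42 with outlier spots kept, 12 with spike-in scaling, 79 with no filter and 3 to 63 without 1 replicate (3 without replicate 3). The cause of these moves was not tested. Signal over background limits what can be said of Mt3 and of Mtf1.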

Other observations

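A few genes outside the metallothioneins, chosen after their values were seen, had these values on the same arrays. Lcn2, the iron-carrier-binding protein lipocalin 2, was at 3.33, 3.36, 4.12 and 3.98 on replicates 1 to 4, with replicates 3 and 4 the high pair, as for Mt1 and Mt2A. Txnrd1, thioredoxin reductase, was at -1.44, -0.89, -0.73 and -1.68, and the zinc channel gene Slc39a7 had the same high pair, replicates 2 and 3. The ferritin light chain Ftl1 was at 7.64, 7.40, 6.77 and 7.24 and the chaperone Hspa8 at 6.63, 6.31, 5.73 and 6.35. Both were lowest on replicate 3 at this scaling, as was Fth1. The 75th percentile was highest on replicate 3, and for Ftl1 and Fth1 the lowest array depended on the scaling. None of these genes was hypervariable after adjustment over all genes (limma), nor were Mt1 and Mt2A. The relation of these genes to Mt1 and Mt2A was not tested.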
